A study of Mus musculus with 49 samples.

Results

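The genes described here are those of synaptic vesicles and of the SNARE machinery that fuses them with the plasma membrane. They were chosen by name alone, as every row of the expression table that is a numbered synaptotagmin, syntaxin, VAMP or SNAP, a syntaxin-binding protein, a SNAP attachment protein (Napa, Napb, Napg), a synapsin, a complexin, an SV2 protein, a synaptogyrin, Syp or Nsf. With 1 matching row left out by the rule, 55 of the 9020 genes listed were members. The rule used no measured value, although it was set with earlier results of these data known. The table itself lists only genes that reached 100 RPM (a gene's share of the reads of a cell, scaled to a fixed total) in at least 2 cells.

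Neurotransmitter is released when a vesicle SNARE (synaptobrevin, encoded by Vamp genes) zips together with the plasma membrane SNAREs syntaxin and SNAP-25 and pulls both membranes into one. Syntaxin-binding proteins guide this assembly, complexins clamp and promote it, and synaptotagmins on the vesicle sense the calcium that triggers it. Afterwards the ATPase encoded by Nsf and its adaptors, the SNAPs encoded by Napa, Napb and Napg, take the spent complexes apart. In the first postnatal week cortical neurons are still building most of their synapses.

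The 49 samples were single cells of the primary somatosensory cortex of wild-type (WT) CD1 mice, collected at P7 with a patch pipette (Patchseq). FlashTag (FT), a dye injected into the embryonic ventricle, had marked cells dividing at the ventricular surface at E13.5, and cells were picked for patching by the brightness of this label. All cells were 1 condition, with no treatment and no control group, and they came from 5 library pools of 12, 9, 9, 9 and 10 cells. The labels name neither animals nor experiments, so the cells were treated as 1 sample, no test was made, and every comparison is a description of these cells; a cell is named by its number and pool.

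The shallowest cell had 209850 reads, the median cell 1240101 and the deepest 35342325, so 1 read was worth between 0.0283 and 4.77 RPM. The labelled cell type, neurons, was checked with Map2, Stmn2 and Tubb3, and all 3 genes were at 10 RPM or more in 49 of 49 cells. At least 2 of 3 excitatory genes were at 10 RPM or more in 35 cells, and at least 2 of 5 inhibitory genes in 17 cells. Markers of other cells were also present. In 6 cells at least 2 of 4 astrocyte genes were at 10 RPM or more, in 17 cells at least 2 of 5 genes of the oligodendrocyte lineage and in 13 cells at least 2 of 5 microglia genes, so that 29 cells met this limit for some glial list. The summed levels ranged from 0 to 1673 RPM for astrocyte genes, from 0 to 3905 RPM for oligodendrocyte lineage genes and from 0 to 6599 RPM for microglia genes, and no gene of these lists was at 0 in every cell. Reads on haemoglobin genes made up 0.00278% to 68.8% of a cell and at least 10% in 3 cells. The part of these signals in the results was not tested, and medians and correlations that moved by over 1.5 times without the 29 or the 3 cells are given with that value. The same was done for each library pool left out, for medians of at least 1 RPM.

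The sequences upstream of 3 members are shown as examples: Syn1, among the most abundant vesicle genes, and the complexins Cplx1 and Cplx3, read in 49 and in 18 cells. The reads come from 3′ ends, so the data do not measure these promoters. They are RefSeq sequence of GRCm38.p6, from 5′ to 3′ on the gene's strand, and end just before the start site. The Syn1 window lies at chrX:20921005-20921168 (minus strand) and was shortened to the 164 bases before both the RefSeq and the GENCODE start. Capitals mark the left part of the RE1 element (TTCAGCACC), which the repressor REST binds, and the cAMP response element (TGACGTCA), which begin 146 and 73 bases before the end of the window.

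Syn1: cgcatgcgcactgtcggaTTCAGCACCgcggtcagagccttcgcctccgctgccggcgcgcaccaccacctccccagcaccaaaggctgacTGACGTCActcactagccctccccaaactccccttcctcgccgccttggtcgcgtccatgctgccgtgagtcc

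The Cplx1 window lies at chr5:108550028-108550277 and the Cplx3 window at chr9:57606282-57606531, both on the minus strand. Capitals mark the E-box CAGCTG, a palindrome that proneural bHLH factors can bind, 82 bases before the Cplx1 start and 131 bases before the Cplx3 start.

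Cplx1: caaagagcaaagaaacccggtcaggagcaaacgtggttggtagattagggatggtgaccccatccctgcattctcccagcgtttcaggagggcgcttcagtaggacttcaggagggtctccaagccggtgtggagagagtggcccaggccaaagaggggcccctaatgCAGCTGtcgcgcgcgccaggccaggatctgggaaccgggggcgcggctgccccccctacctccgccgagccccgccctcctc

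Cplx3: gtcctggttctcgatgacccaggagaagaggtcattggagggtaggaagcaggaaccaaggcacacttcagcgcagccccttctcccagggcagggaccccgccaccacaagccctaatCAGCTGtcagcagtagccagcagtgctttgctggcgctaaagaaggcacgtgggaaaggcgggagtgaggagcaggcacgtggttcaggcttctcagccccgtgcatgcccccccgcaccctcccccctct

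The 250 bases before the RefSeq start nearest to the GENCODE start were searched on both strands for these 3 motifs, none of which contains another. Of the 55 members 42 had a RefSeq entry, and for 38 of these the 2 annotations placed the start within 500 bases. CAGCTG was found for 10 of 42 members (23.8%), for 12.4% of 20592 genes with an entry and for 10.9% of the 6834 genes of the table with an entry. The 10 were Cplx1, Cplx2, Cplx3, Stx1a, Stx4a, Stx7, Stx12, Stxbp5, Sv2a and Syt16, whose median levels ran from 0 (Cplx3) to 320 RPM (Cplx1). The cAMP response element was found for Syn1 and Stxbp3 (1.91% of all genes) and the left part of RE1 for Syn1 alone (0.291% of all genes). The window also held a median of 15.5 CpG dinucleotides for members, 17 for genes of the table and 8 for all genes. For Cplx2 the starts of RefSeq and GENCODE were 68793 bases apart, so its window is not shown. Among the 13 members with no entry were Syt7, Vamp3, Syn3, Syt17, Vamp2, Snap25, Syt13, Syt4, Napg, Syngr3 and Syt5.

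The members ran from a broadly expressed core to a long tail of genes with low medians. A read of the gene was found in all 49 cells for 13 of 55 members (23.6%), against 8.1% of all genes listed. A level of at least 10 RPM in at least 45 cells was reached by 12 members (21.8%), against 6.59% of all genes. The median over cells was at least 100 RPM for 21 members (38.2%, against 13.7%) and at least 10 RPM for 31 members (56.4%, against 38.2%). At the other end, the median was under 1 RPM for 17 members (30.9%, against 33.8%), and a read in at least 25 cells was found for 45 members (81.8%, against 80.6%). The list thus differed from all genes at its upper end and hardly in its tail. Its median member had a median of 26.6 RPM, against 3.87 RPM for all genes, and 37.8% of its values were at 100 RPM or more, against 23.3% of all values.

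**Figure D1:**
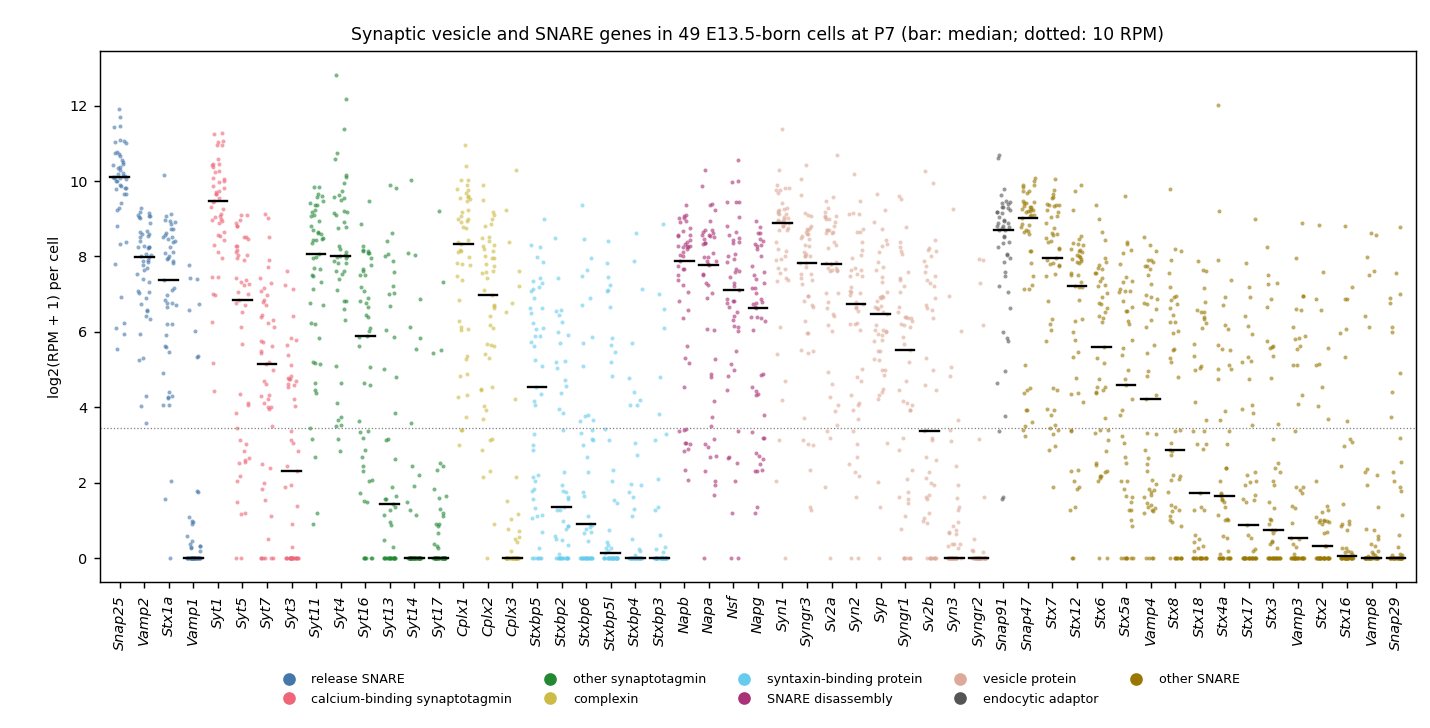
Level of 53 of the 55 genes (horizontal axis, grouped by role) in each of the 49 cells as log2(RPM + 1) on the vertical axis, 1 point per cell, with the median as a bar and 10 RPM as a dotted line. Snap25, Syt1, Snap47, Syn1 and Snap91 have the highest medians of those shown, and many genes have a median of 0 with a few cells above 100 RPM.

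Many values of members were low. They were at 0 in 22.2% of values and above 0 but under 10 RPM in a further 20.7%. Where no cell of a library pool reached 10 RPM for a member, 10.8% of the values of that pool had a read (17 of 157, exact 95% interval 6.44% to 16.8%). Where some cell of the pool reached 100 RPM, 59.5% of the values under 10 RPM had a read (465 of 782, exact 95% interval 55.9% to 62.9%). The intervals cover counting error only, the values share cells, genes and depth, and the 2 cases hold different genes, so whether low reads reflect low expression or reads of other cells was not tested. For comparison, C1qb, a microglia gene, had a read in 38 cells and 10 RPM in 11, so levels of at least 10 RPM are given beside reads below.

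Among the SNAREs of release, Snap25, the plasma membrane SNARE of evoked release, was the most abundant member. It ranged from 45.6 to 3834 RPM with a median of 1101, and it was the highest member in 25 of the 49 cells. Vamp2, the main vesicular SNARE of the forebrain, ranged from 11.1 to 623 RPM (median 252). Both were at 10 RPM or more in every cell. Stx1a encodes a plasma membrane syntaxin of release. It ranged from 0 to 1144 RPM with a median of 164 and was at 10 RPM or more in 46 cells. Vamp1, the vesicular SNARE known mainly from the spinal cord and brainstem, was read in 22 cells, at 10 RPM or more in 8, and reached 219 RPM.

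Snap25, Vamp2, Stx1a and Syt1 together encode SNAREs and a calcium sensor for fast release. All 4 were at 10 RPM or more in 46 of 49 cells (93.9%, exact 95% interval 83.1% to 98.7%), and the other 3 cells lacked Stx1a alone at this level, with 3.10, 1.95 and 0 RPM. At the higher limit of 100 RPM all 4 were found in 28 cells. The set was therefore near complete at the lower limit, while its levels varied widely between cells.

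Syt1, the fast calcium sensor of cortical synapses, ranged from 20.6 to 2473 RPM (median 707), was at 10 RPM or more in all cells and was the highest member in 10. Syt5, another calcium-binding synaptotagmin, ranged from 0 to 551 RPM with a median of 114. Syt7, a slow sensor of high affinity, ranged from 0 to 560 RPM with a median of 34.6. Syt3 had a median of 3.97 RPM and reached 195 RPM. Only Syt1 was above 10 RPM throughout, whereas the 3 others were at that level in 34, 36 and 19 cells. Without the 29 cells with glial genes the medians of Syt5 and Syt3 were 212 and 19.5 RPM. Synaptotagmins whose C2 domains do not bind calcium in the usual way were also widely expressed. Syt11 ranged from 0.893 to 914 RPM with a median of 268. Syt4, a gene induced by activity and found on dense-core vesicles and at postsynaptic sites, ranged from 6.17 to 7171 RPM with a median of 255. Syt16 ranged from 0 to 711 RPM with a median of 58.5, or 32.4 without pool 1. The spread of Syt4 came from its upper end, since a second cell held 4643 RPM and Syt4 was the highest member in 4 cells.

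The cell with the most Syt4 was cell 12 of pool 1, where 1616 of only 225363 reads fell on it and it made up 72.0% of the summed level of the list. This cell also held 3275 RPM of Sst, the gene of the neuropeptide somatostatin, and 39.9 RPM of the excitatory list (Slc17a7, Neurod2 and Neurod6 summed). Its whole inhibitory list (Gad1, Gad2, Slc32a1, Lhx6 and Sst) summed to 3292 RPM, so the other genes of that list added little to Sst. Without Syt4 the members summed to 2787 RPM there. Syt13 (median 1.72 RPM, and 0.963 to 2.72 without each pool) reached 959 RPM and Syt14 (median 0) reached 1038 RPM in single cells. Syt17 was the sole member that reached 500 RPM while at 10 RPM or more in at most 5 cells. It was at 595 RPM in cell 1 of pool 1, where 11619 reads fell on it and which held 68.4% of its summed RPM, and its next value was 159 RPM.

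The complexins split into genes of most cells and a gene of few. Cplx1 ranged from 6.99 to 1977 RPM (median 320) and was at 10 RPM or more in 46 cells. Cplx2, the other complexin of central synapses, ranged from 0 to 957 RPM (median 125, or 189 without pool 3) and was at that level in 42 cells. In the 20 cells below the glial limit the Cplx1 median was 496 RPM. Cplx1 was lowest in pool 5, with a median of 54.3 RPM, against 320 to 506 RPM in the other pools. Cplx3, a complexin known from ribbon synapses of the retina and from the subplate and layer 6b of the cortex, was at 10 RPM or more in 8 cells and had a median of 0.

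Cplx3 reads followed the library pools. The 8 cells at 10 RPM or more were 4 cells of pool 1 and 4 of pool 3. In pool 1 cells 3, 4 and 9 held 335, 195 and 1247 RPM, from 2810, 2684 and 1541 reads. In pool 3 cells 3, 4, 5 and 9 held 147, 108, 598 and 91.7 RPM, from 1010, 172, 837 and 58 reads. The eighth cell, cell 12 of pool 1, had 17.7 RPM from only 4 reads. A further 10 cells of these 2 pools had between 1 and 21 reads, all under 10 RPM. By contrast, the 28 cells of pools 2, 4 and 5 had 0 reads of Cplx3 among 54100073, which allows at most 0.0555 RPM over them together (3 reads). The study's methods state that each library mixed cells of different collection days and laminar positions. The labels give neither for a cell, so whether these differed between the pools was not tested. In all 8 cells at least 1 gene of the excitatory list was at 10 RPM or more, as it was in 44 of the 49 cells. The other subplate genes listed for comparison were not analysed here.

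Of the 6 syntaxin-binding proteins described here, only Stxbp5 was at 10 RPM or more in most cells (28 of 49). Stxbp5 (tomosyn), an inhibitor of SNARE assembly, ranged from 0 to 509 RPM with a median of 22.1. This median was 48.04 RPM without pool 5, 35.2 RPM without pool 4 and 12.3 RPM without the 29 cells with glial genes. The other 5 (Stxbp2, Stxbp3, Stxbp4, Stxbp5l and Stxbp6) had medians from 0 to 1.58 RPM and were at 10 RPM or more in 6 to 17 cells. Each still reached between 340 and 661 RPM in some cell. Stxbp3, known from many tissues, was read in 16 cells, and 56.6% of its summed RPM lay in a single cell, cell 5 of pool 2 (463 RPM).

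The disassembly genes were all widely expressed. Nsf, the ATPase, ranged from 0 to 1495 RPM with a median of 138. Its adaptors Napb, the brain isoform, and Napa, the ubiquitous isoform, had medians of 233 and 218 RPM, with ranges of 3.18 to 657 RPM and 0 to 1253 RPM. Napg had a median of 98.4 RPM and ranged from 1.31 to 494 RPM. The 4 genes were at 10 RPM or more in 41, 39, 39 and 37 cells, so none was as constant over cells as Snap25 or Vamp2.

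Among the vesicle proteins, Syn1, a synapsin that ties vesicles to one another in the reserve pool, ranged from 0 to 2646 RPM (median 474) and was at 100 RPM or more in 42 cells. Its paralog Syn2 ranged from 0 to 1171 RPM with a median of 106. Syn3, the synapsin of developing neurons and progenitors, had a median of 0, and cell 5 of pool 1 (617 RPM) held 67.8% of its summed RPM. The vesicle glycoproteins and tetraspan proteins showed the same split into 1 abundant gene and lower relatives. Sv2a ranged from 0 to 1638 RPM (median 222), and Sv2b from 0 to 1235 RPM (median 9.45). Syngr3 ranged from 1.43 to 1382 RPM (median 225), Syngr1 from 0 to 780 RPM (median 45.03), and Syngr2, the form of non-neural tissues, was at 10 RPM or more in 4 cells. The Syngr1 median was 20.97 RPM without pool 1 and 16.7 RPM without the 29 cells with glial genes, where that of Sv2a was 405 RPM. The Sv2b median was 15.4 RPM without pool 2 or without the 3 haemoglobin-rich cells, and 22.2 RPM without pool 4. Syp (synaptophysin), the classical marker of synaptic vesicles, ranged from 0 to 803 RPM with a median of 87.4 and was at 10 RPM or more in 45 cells.

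Snap91 matches the name pattern but is a clathrin adaptor of vesicle endocytosis and no SNARE. It ranged from 1.98 to 1645 RPM with a median of 416 and was at 10 RPM or more in 46 cells.

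The 16 other SNAREs serve mostly traffic within the cell. Snap47, a SNAP-25 relative without the membrane anchor, ranged from 8.51 to 1078 RPM with a median of 520, the third highest of the list after Snap25 and Syt1. Per kb of its longest annotated transcript it was the highest, with 275 RPM per kb against 226 for Snap25 and 147 for Syt1. Reads from 3′ ends need not grow with length, so the division by length can itself set that order. Snap47 overlaps Jmjd4, 1 of 9 members that overlap another gene of the table, and the sources used here do not state whether reads were counted by strand. Of the endosomal syntaxins, Stx7 ranged from 2.72 to 1057 RPM (median 249), Stx12 from 0 to 948 RPM (median 147) and Stx8 from 0 to 890 RPM (median 6.30). Stx6 of the trans-Golgi network had a median of 47.2 RPM and a maximum of 655 RPM. Stx5a of the Golgi had a median of 23.3 RPM and a maximum of 779 RPM, and Vamp4, another SNARE of the trans-Golgi network, 17.7 and 364 RPM. These lower medians depended on the cells included: that of Stx6 was 81.1 RPM without pool 5, that of Stx5a 14.1 RPM without pool 1, that of Vamp4 8.88 RPM without pool 3 and 27.7 RPM without pool 5, and that of Stx8 9.47 RPM without pool 2. For 8 more (Stx2, Stx3, Stx16, Stx17, Stx18, Vamp3, Vamp8 and Snap29) the medians were between 0 and 2.33 RPM, 7 to 19 cells were at 10 RPM or more and the highest values were between 233 and 507 RPM. The highest of these medians, that of Stx18, ran from 0.416 RPM without pool 5 to 8.31 RPM without pool 4. It was 0.181 RPM without the 29 cells with glial genes and 6.82 RPM without the 3 haemoglobin-rich cells.

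Stx4a, a plasma membrane syntaxin of non-neuronal exocytosis and of dendrites, had the second highest maximum of the list, after Syt4. Its median was 2.13 RPM, yet it reached 4165 RPM in cell 2 of pool 1, from 1075 of 258130 reads, with 71.1% of its summed RPM there and a next value of 590 RPM. Stx4a (chr7:127824294-127849019, plus strand) also overlaps another gene of the table.

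Closely related genes were compared within each cell, as the share of the first in the reads of both. Vamp2 exceeded Vamp1 in 48 of 49 cells, with a median share of 100%. Sv2a exceeded Sv2b in 42 cells (median share 84.6%), and Syn1 exceeded Syn2 in 41 cells (median share 74.97%). Syngr3 exceeded Syngr1 in 41 cells, with Syngr1 at a median share of 23.7%. Syngr1 exceeded Syngr3 in 14.3% of cells, and in 5.13% of cells without pool 5. For these 4 pairs 1 paralog thus led in most cells. Exceptions were often past the counting error of reads, since Sv2b exceeded Sv2a beyond its binomial interval in 5 of 7 cells and Syn2 exceeded Syn1 in 5 of 8. The interval treats reads as independent. The kit has no molecular identifiers, so error from sampling and amplifying molecules is not covered, here or in the pairs below.

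Other pairs were more even. Syt1 exceeded Syt4 in 36 cells and Syt4 exceeded Syt1 in 13, all 13 past counting error. Cplx1 exceeded Cplx2 in 37 cells and fell below it in 12, with a median share of 31.9% for Cplx2, or 17.3% per kb of transcript. Per kb, Cplx2 exceeded Cplx1 in 6 cells instead of 12. Napb and Napa were balanced, with Napb higher in 23 cells, Napa higher in 26 and a median share of 48.3% for Napb. In individual cells, however, this share ran from 0.755% to 100%, and 22 cells on either side were past the counting error of reads. Whether these differences would hold for counts of molecules was not tested. Without the 29 cells with glial marker genes Napb was higher in 65% of cells, against 46.9% of all cells. Across cells the paralogs of a pair were weakly related, with a Spearman's rho of at most 0.22, for Vamp2 and Vamp1 (n = 49).

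**Figure D2:**
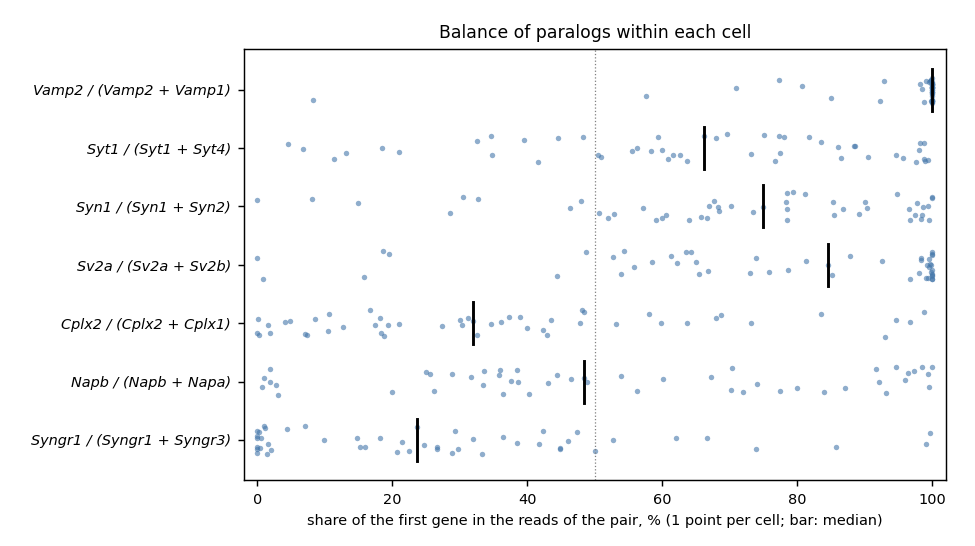
Share of the first gene in the reads of each pair of paralogs (horizontal axis, in percent), 1 point per cell, with the median over cells as a bar and 50% as a dotted line. Vamp2 sits near 100% in nearly every cell, whereas Napb spreads from 0.755% to 100% around a median of 48.3%.

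The members of a cell summed to between 2964 and 15231 RPM, with a median of 10226 and a mean of 10030 ± 2979 (SD over 49 cells, CV 29.7%). This is 0.296% to 1.52% of the reads of a cell (median 1.02%). The sum varied less than that of any role with several members, although a sum over more genes tends to vary less in any case. The CV was 39.7% for vesicle proteins, 57.7% for the SNAREs of release, 76.7% for complexins and 103% for the synaptotagmins without usual calcium binding. By role, the vesicle proteins had a median sum of 1499 RPM and the SNAREs of release 1695 RPM. The medians of the whole sum were 12002, 9488, 9621, 8379 and 10370 RPM in pools 1 to 5, and each pool spanned a range wider than these differences.

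**Figure D3:**
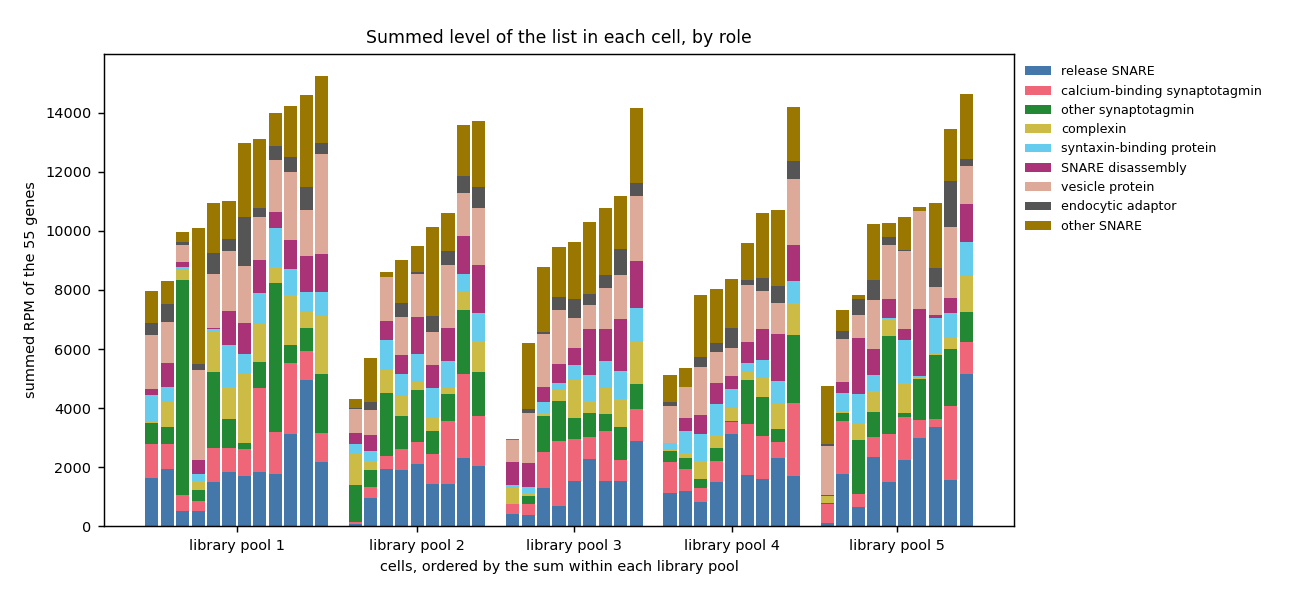
Summed RPM of the 55 genes (vertical axis) in each cell, as a bar divided by role, with cells ordered by the sum within each library pool. The sums run from 2964 to 15231 RPM, and the tall green block in pool 1 is the cell in which Syt4 reached 7171 RPM.

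A few genes carried each cell. The highest member took 8.74% to 72.0% of the sum (median 15.7%) and the 10 highest took 49.4% to 95.2% (median 68.5%). Besides Snap25 (25 cells), Syt1 (10) and Syt4 (4), Cplx1 led in 2 cells, and Napb, Nsf, Snap47, Snap91, Stx4a, Stx8 and Syn1 were among those that led in 1 each. A cell had reads of 23 to 54 members (median 43), and 14 to 45 members were at 10 RPM or more (median 33).

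The summed level moved with measures of library content as well as with neuronal genes. Spearman's rho over the 49 cells was 0.47 with log10 reads (Pearson's r 0.43) and 0.53 with the number of genes detected (r 0.52). It was -0.37 with the percentage of mitochondrial reads and -0.45 with that of haemoglobin reads (r -0.54, and -0.10 without the 2 cells farthest from the median). RPM is a share, so reads taken by haemoglobin lower every other gene: scaled to reads outside mitochondrial and haemoglobin genes, rho with haemoglobin was -0.35. Within pools the signs for haemoglobin were negative in all 5, while rho with log10 reads was 0.58, 0.45, 0.33, 0.82 and -0.14 in pools 1 to 5.

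Among marker lists, rho was 0.44 with the neuron genes and -0.42 with the microglia genes, each with the same sign in all 5 pools. It was 0.26 with the excitatory list, -0.18 with the inhibitory list (0.06 without pool 1), -0.14 with the astrocyte list (-0.01 without pool 1 and -0.31 without pool 5) and -0.13 with the oligodendrocyte list (0.00 without pool 2). In the 20 cells below the glial limit, rho was 0.79 with log10 reads, -0.70 with haemoglobin, 0.28 with the neuron list and -0.23 with the microglia list. There it was -0.00451 with the excitatory list, -0.40 with the inhibitory list, -0.34 with the astrocyte list and 0.10 with the oligodendrocyte list. The points of each correlation share their libraries and depth, and whether depth or cell content accounts for the relation was not tested.

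**Figure D4:**
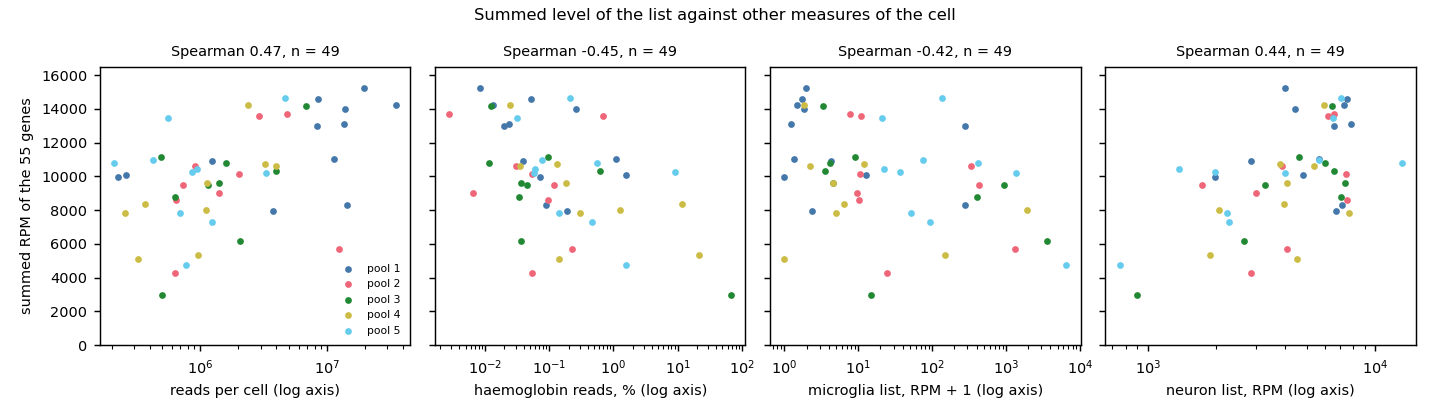
Summed RPM of the 55 genes (vertical axis) against reads per cell, percentage of haemoglobin reads, summed microglia genes and summed neuron genes (horizontal log axes), 1 point per cell, colored by library pool. The sum tends upward with reads and neuron genes and downward with haemoglobin and microglia genes, and the lowest cell, at 2964 RPM, is the one with 68.8% haemoglobin reads.

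The 4 cells with less than 100 RPM of Snap25 were of different kinds. Cell 1 of pool 3 (45.6 RPM of Snap25) had the lowest sum of the list and 68.8% haemoglobin reads. After scaling to the remaining reads its sum was 10088 RPM. Cell 2 of pool 2 (60.1 RPM) had 20.6 RPM of Syt1, the lowest of all cells, and 3905 RPM of oligodendrocyte lineage genes, yet 736 RPM of Cplx1. Cell 5 of pool 5 (67.5 RPM) had 629 RPM of Syt1 beside 6599 RPM of microglia genes. Cell 4 of pool 4 (74.7 RPM) had 35.4 RPM of Syt1, but 7672 RPM of neuron genes, 598 RPM of Cplx1 and at most 3.93 RPM on any glial list. In 3 of the 4 cells haemoglobin or glial genes were thus at the top of their range over all cells. In the other, cell 4 of pool 4, the glial lists were low. Its haemoglobin reads, at 0.303%, were at the upper quartile of all cells (median 0.0894%).

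The members were weakly correlated with one another. Over the 990 pairs of the 45 members read in at least 25 cells, the median Spearman's rho was 0.12, against 0.10 over all pairs of the 7269 genes read as widely. In the 20 cells below the glial limit it was 0.18 among members and 0.12 among all these genes. For the 21 members with a median of at least 100 RPM it was 0.18 (210 pairs), against 0.11 for all 1232 such genes, and 9.05% of these pairs of members had a rho over 0.4, against 5.26% of the pairs of those genes. For these abundant genes the difference was smaller in the 20 cells below the glial limit, with 0.165 among members and 0.135 among all such genes. The closest pairs were Cplx1 and Napb (rho 0.60), Syt1 and Syt3 (0.56), Vamp2 and Snap47 (0.56) and Napb and Snap47 (0.54), and next the endosomal syntaxins Stx7 and Stx12 (0.53). Snap47 and Stx7 (0.50) and Vamp2 and Cplx1 (0.49) were also among the highest. All are over 49 cells that share libraries and differ in depth.

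**Figure D5:**
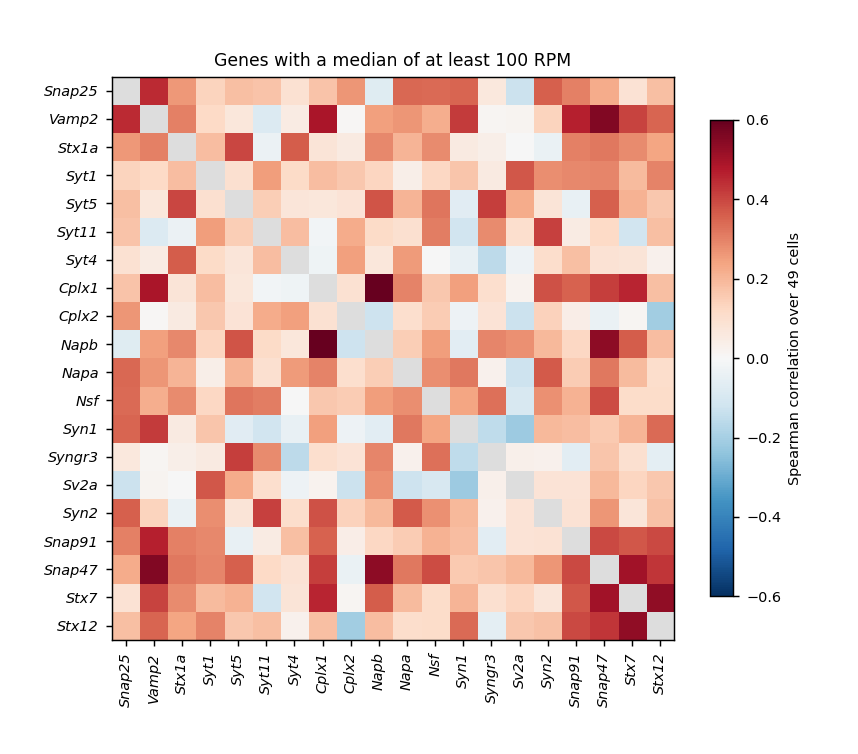
Spearman correlation over 49 cells (color, from -0.6 in blue to 0.6 in red) between 20 of the 21 members with a median of at least 100 RPM. Vamp2, Cplx1, Napb, Snap47, Stx7 and Stx12 share the darkest red cells, whereas Sv2a, Syt11 and Cplx2 are pale or blue against many genes.

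The genes most like Snap25 were no members. Of all genes read in at least 25 cells, Rab6a (rho 0.57), Dnal4 (0.56), Camkv (0.55), Csnk1a1 (0.55) and Actr3b (0.55) had the highest Spearman correlation with it over the 49 cells. Dnal4 had a median of only 0.620 RPM. Among members, Vamp2 came closest, at 0.45 and rank 46 of the genes compared.

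Other genes of the release machinery, outside the name pattern, were compared as a list of 26 in the table. It held active zone scaffolds, priming factors, Rab3 proteins, endocytic genes, vesicular transmitter transporters and other vesicle proteins. Slc17a7 was also in the excitatory list and Slc32a1 in the inhibitory list. All 26 had a read in at least 25 cells, 18 had a median of at least 10 RPM and 8 of at least 100 RPM, where the shares over all genes listed were 80.6%, 38.2% and 13.7%, with a median of medians of 42.04 RPM. Rab3a, the GTPase of synaptic vesicles, ranged from 14.3 to 4789 RPM (median 890) and, like Snap25, was at 10 RPM or more in every cell. Dnajc5, a chaperone of SNAP-25 on vesicles, had a median of 241 RPM, and the active zone scaffold Erc2 a median of 152 RPM and a maximum of 6341 RPM. That maximum lay in cell 12 of pool 1, from 1429 of 225363 reads, and the next value of Erc2 was 1687 RPM. The priming factor Unc13a and the scaffold Bsn (Bassoon) had medians of 29.2 and 4.77 RPM. The sum of this list rose with that of the members, at a rho of 0.53 over the 49 cells, with the same sign in all 5 pools.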

How the data were processed

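The authors made cDNA of single cells with a SMART-Seq kit that primes at 3′ ends and libraries with Nextera XT, sequenced single-end reads, aligned them to GRCm38 (mm10, per the labels) with STAR, counted them with HTSeq and deposited the values as RPM without a log step. Versions, annotation and strand setting are not given in the sources used here. The kit has no molecular identifiers, so intervals (exact Clopper-Pearson, 95%) cover counting error only.

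Each RPM value was divided by the value of 1 read in its cell, which gave whole reads (tolerance 0.01) for 100% of nonzero values. Reads served for detection, shares and thinning to 358412 reads (44 cells kept, 5 left out), RPM for levels, and log2(RPM + 1) for Pearson correlations. GENCODE M21 (GRCm38) gave transcript lengths and coordinates, and RefSeq (GRCm38.p6) the promoters. Scripts were tested on simulated data. The scripts ran under Python 3.11.15 with pandas 2.3.3, numpy 2.4.6, matplotlib 3.10.9 and scipy 1.17.1.

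The members and gene lists were chosen with earlier results of these data known. Levels are given for members with a median of at least 10 RPM, for the genes of the pairs, for those reaching 500 RPM although at 10 RPM or more in at most 5 cells, and for Cplx3. Syt3, Syt13, Syt14, Syn3, Syngr2, Stx4a and Stx8, the 4 cells low in Snap25 and the pools of Cplx3 were described after their values were seen. Of the members, 2 are counted but not reported here by name. The planned pairs of Snap25 with Snap23 and of Syt1 with Syt2 were not analysed here. Alternatives left out each pool, thinned the cells, or changed limits and scaling. Leaving out cells with haemoglobin or glial genes was chosen after seeing the data.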

Additional observations from a re-analysis of the deposited data

How the results depend on the processing

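No paired analysis was possible because only 1 condition was sampled. The count of members read in at least 25 cells was 45, and 32 with at least 10 reads, 37 after thinning and 31 at 10 RPM; the count with a median of at least 10 RPM was 31, and 25 per kb of transcript. The median summed level was 10226 RPM, and 9621 to 10292 RPM when each pool was left out. The median rho between members was 0.12, 0.12 to 0.14 without each pool, 0.09 after thinning and 0.18 without the cells with glial genes; the pseudocount cannot change a rank correlation.

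Without the cells with at least 10% haemoglobin reads, Vamp2 exceeded Vamp1 in 100% of cells. Without those with glial genes, the share of cells in which the first gene was higher became 100% for Vamp2 over Vamp1 and 65% for Napb over Napa. Per kb, Cplx2 exceeded Cplx1 in 12.2% of cells. Leaving out each pool gave 97.3% to 100% for Vamp2 over Vamp1, 5.13% to 18.9% for Syngr1 over Syngr3, 20% to 30% for Cplx2 and 40% to 53.8% for Napb.

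For the summed level, rho with the astrocyte list was -0.30 after thinning and -0.312 to -0.00937 without each pool, and with the inhibitory list -0.279 to 0.0642 without each pool. Without the cells with glial genes, rho was 0.79 with log10 reads, 0.79 with genes detected, -0.70 with haemoglobin, 0.37 with the other release genes, -0.00451 with the excitatory list, -0.40 with the inhibitory list, 0.28 with the neuron list, -0.34 with the astrocyte list, 0.10 with the oligodendrocyte list and -0.23 with the microglia list. The balance of Napb and Napa thus crossed equality, and the signs for the inhibitory, excitatory and oligodendrocyte lists turned under these settings. The cause of these changes was not tested. The medians of 31 members at 10 RPM or more were recomputed 248 times. Among those recomputed with a pool or a group of cells left out, 14 moved by over 1.5 times, in 10 genes. Such moves were not counted for the medians scaled to reads outside mitochondrial and haemoglobin genes. The spread between cells is wide, so smaller moves say little about stability. Depth limits members of low level: 1 read was worth up to 4.77 RPM.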
